A study of Rattus norvegicus with 65 samples.

Results

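Met, the receptor tyrosine kinase for hepatocyte growth factor, and 8 genes that lie around it or around Cdk6 on rat chromosome 4 were followed across serially transplanted rat mammary tumors. The 9 genes were Krit1, Ankib1, Gatad1 and Cdk6 at one end of the interval, and Cav2, Cav1, Met, Capza2 and St7 at the other. They were chosen with measured values in view, among them the high Met level of 1 line of tumors, series 42, and the group of genes is not independent of that line. Of the 9 genes, 8 had at least 1 probe set among the 10411 genes measured, with 11 probe sets between them, and 7 were bright enough to be among the 8499 genes tested. No probe set was matched to St7, and Cdk6 fell below the brightness filter.

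The transplanted tumors formed 5 generations, transplant 1 to transplant 5, each grown in syngeneic hosts, and the primary tumors had been induced by a carcinogen. There were 11 arrays each of transplants 1 to 4, 10 arrays of transplant 5 and 11 arrays of primary tumors, in 11 lines called series 42, 10, 13, 17, 19, 25L, 25R, 32, 33, 34 and 36. Each line had 1 array per generation, except that no transplant 5 tumor was analysed here for series 10. The carcinogen, the strain, the age of the animals and the invasive behavior of each tumor are not given in the sources used here, nor whether series 25L and 25R came from 1 animal. The tissue was whole frozen tumor, so each value mixes tumor cells with the other cells of the tumor.

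The question was whether these neighbors were raised together in single lines, as a gain of that stretch of chromosome would give. Only RNA was measured, so DNA copy number was not tested. Met drives growth, motility and branching of epithelial cells when hepatocyte growth factor, made largely by stromal cells, binds it, and the Met locus is known to be amplified in some tumors of several organs. Cdk6 pairs with D-type cyclins and phosphorylates the retinoblastoma protein. Cav1 and Cav2 are the caveolins, membrane proteins that build caveolae and are abundant in endothelium, fat and fibroblasts. Krit1 belongs to a junctional complex best known from cerebral cavernous malformations, Ankib1 is an ankyrin repeat protein of the RBR ubiquitin ligase family, Gatad1 is a zinc finger protein of chromatin, Capza2 is an alpha subunit of the actin capping protein, and St7 is a candidate tumor suppressor. When a stretch of chromosome is gained, the genes inside it tend to be raised together whatever their function, and a gene with its own regulation can depart from that.

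Start regions are shown for Ankib1, Gatad1, Met and Capza2, members that were all high in series 42, because these annotated windows differ in base composition. Of the 9 genes, 7 had an entry in the RefSeq promoter table (assembly GRCr8, which is not stated to be the build behind the array annotation). The 250 bases before the annotated start are given 5′ to 3′ for Ankib1 (chr4:31288143-31288392, plus strand), Gatad1 (chr4:31462059-31462308, plus strand), Met (chr4:46784496-46784745, plus strand) and Capza2 (chr4:46943790-46944039, plus strand). Capitals mark the GC box GGGCGG or its complement CCGCCC, the core of the site bound by Sp-family factors, and overlapping matches are counted separately.
Ankib1: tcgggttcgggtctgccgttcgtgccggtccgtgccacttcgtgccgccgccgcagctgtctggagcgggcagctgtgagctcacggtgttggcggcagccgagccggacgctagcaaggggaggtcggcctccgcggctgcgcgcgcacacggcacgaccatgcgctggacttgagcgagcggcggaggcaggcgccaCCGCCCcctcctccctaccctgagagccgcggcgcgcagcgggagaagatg
Gatad1: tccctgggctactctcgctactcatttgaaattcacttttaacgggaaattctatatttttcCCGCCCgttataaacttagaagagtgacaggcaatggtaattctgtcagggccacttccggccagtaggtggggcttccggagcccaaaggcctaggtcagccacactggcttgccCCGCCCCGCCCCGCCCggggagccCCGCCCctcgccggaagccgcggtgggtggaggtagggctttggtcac
Met: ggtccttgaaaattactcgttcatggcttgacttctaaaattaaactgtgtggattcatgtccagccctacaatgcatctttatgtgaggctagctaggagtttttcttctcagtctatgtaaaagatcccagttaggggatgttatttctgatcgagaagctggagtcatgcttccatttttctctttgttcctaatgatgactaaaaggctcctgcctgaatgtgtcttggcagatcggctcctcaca
Capza2: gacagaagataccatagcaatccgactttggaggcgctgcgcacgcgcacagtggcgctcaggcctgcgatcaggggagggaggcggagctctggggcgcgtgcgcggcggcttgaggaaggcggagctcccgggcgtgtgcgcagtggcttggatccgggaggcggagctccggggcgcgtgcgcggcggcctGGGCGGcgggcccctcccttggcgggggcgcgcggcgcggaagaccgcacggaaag
The Ankib1 window held 35 CpG dinucleotides and the Capza2 window also held 35, at 73.2% and 74.0% G or C, with 1 GC box each. The Gatad1 window held 15 CpG and 5 GC boxes at 59.2% G or C. The Met window held 3 CpG and no GC box at 42.0% G or C. Across all 33469 windows of this length in the table, the median was 5 CpG, and 30.5% held a GC box on either strand. More CpG than in the Ankib1 window was rare, since 97.4% of the windows held fewer, whereas 28.6% held fewer than the Met window. These are properties of the reference sequence and not of the tumors. Alternative starts were not considered, and whether these annotated starts are the ones used in the tumors was not tested. The Met values describe this window and need not hold for every Met promoter.

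All values below are log2 intensities after the arrays were scaled to a common median, with a floor at 5.31 under which values carry no order. A difference of 1 is a doubling. In series 42, Met had values of 11.60, 11.60, 11.34, 11.88, 11.65 and 11.95 for the primary tumor and transplants 1 to 5. The other 59 arrays had a lowest value of 5.31, a median of 6.63 and a highest value of 8.35. Every array of series 42 was therefore far above every other array, and the lowest of them exceeded the highest of the others by 2.99. The mean of series 42 was 11.67 ± 0.22 (SD, n = 6 arrays), against 6.69 ± 0.50 (SD, n = 10 line means) for the other lines, a difference of 4.98 or 31.5-fold. On the linear scale these are geometric mean intensities of 3262 in series 42 and 103.5 in the other lines. Because the genes were chosen on this contrast, it is a description and no test of it is given.

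The genes at the Cdk6 end showed the same separation. Gatad1 had values of 10.79, 10.85, 10.89, 11, 11.28 and 11.85 in series 42, against a lowest value of 7.09, a median of 8.09 and a highest value of 9.11 on the other 59 arrays. Its mean was 11.11 ± 0.40 in series 42 and 8.04 ± 0.27 in the other lines, a difference of 3.07 or 8.38-fold. Ankib1 had values of 9.61, 9.93, 9.78, 9.98, 10.23 and 10.82 in series 42 and lay between 7.28 and 7.92 elsewhere, so the other 10 lines were closely alike for this gene. The difference was 2.40, or 5.29-fold. Krit1 lay between 8.93 and 9.70 in series 42 and between 5.95 and 7.50 elsewhere, a difference of 2.19. None of these ranges overlapped. Cdk6 was the exception at this end: its probe set lay between 6.23 and 6.46 in series 42 and between 5.31 and 6.95 elsewhere, with a mean of 6.38 ± 0.08 in series 42 and 6.05 ± 0.24 in the other lines. With a mean of 6.08 over all arrays, this probe set read close to the floor in every line, and a difference in Cdk6 RNA between series 42 and the other lines was not detectable at this signal.

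The genes at the Met end also stood apart in series 42. Cav1 lay between 12.23 and 12.60 in series 42 and between 7.56 and 11.90 elsewhere, with means of 12.35 ± 0.16 in series 42 and 9.53 ± 0.69 in the other lines, a difference of 2.83. Its ranges were separated by 0.33, a far smaller gap than for Met. Capza2 lay between 11 and 11.69 in series 42 and between 8.82 and 9.97 elsewhere, a difference of 1.92. Cav2 lay between 8.90 and 9.59 in series 42 and between 5.31 and 8.85 elsewhere, a difference of 1.89, and its ranges were separated by only 0.05. Thus 7 of the 8 measured members had all 6 arrays of series 42 above all 59 others, a pattern that 2.59% of the 10411 measured genes showed. The reverse pattern, below every other array, was shown by 1.51% of the measured genes and by none of the members. Nothing is read from these counts, since the members were picked for this contrast.

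**Figure D1:**
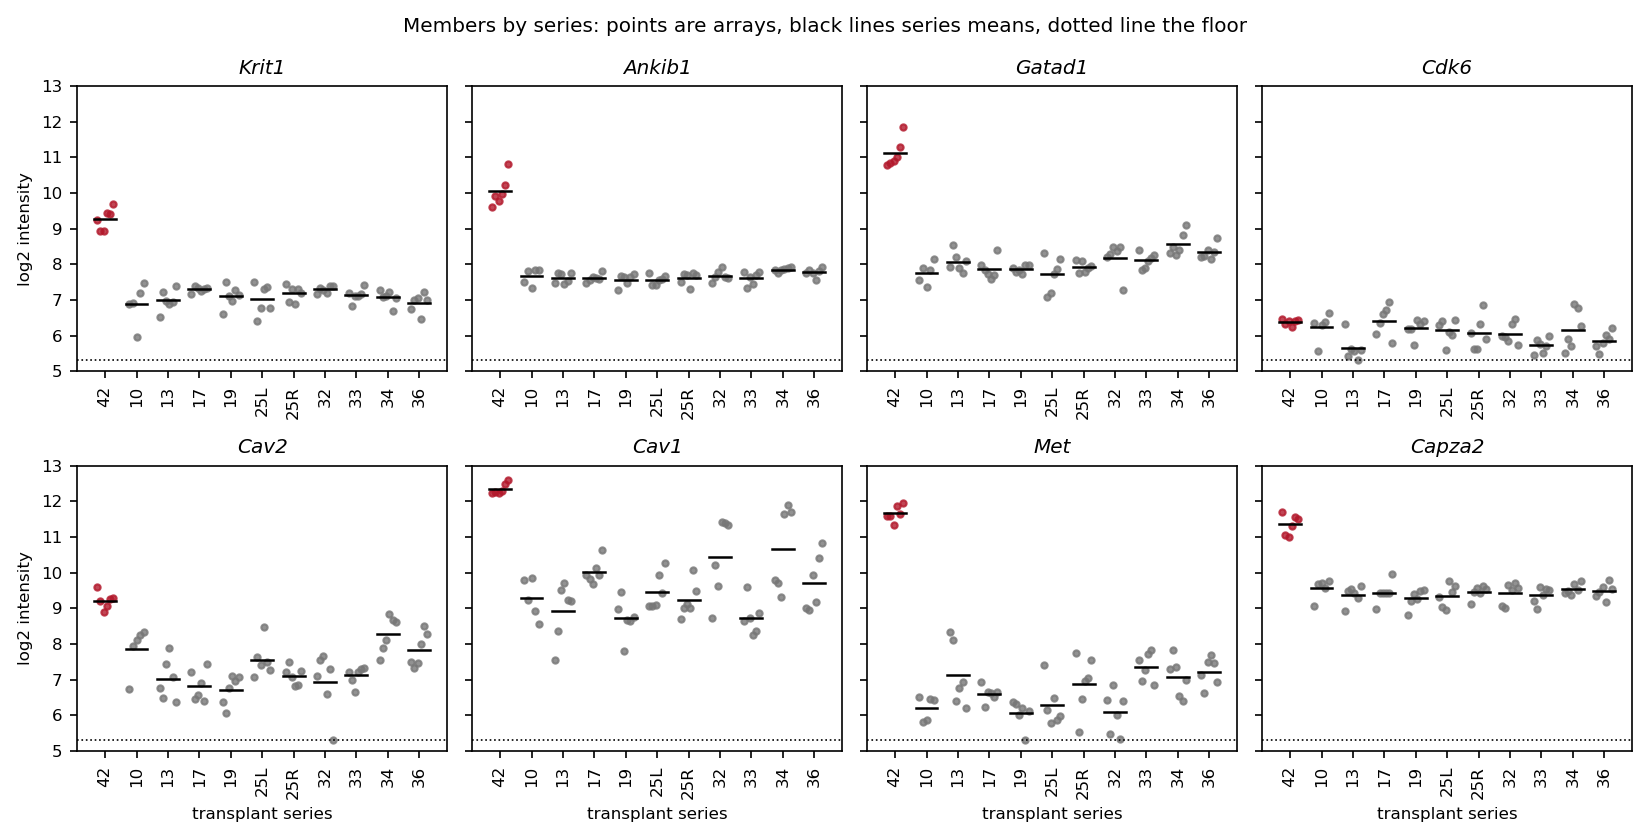
Log2 intensity (y axis) of the 8 measured members in each transplant series (x axis), with 1 point per array and a black line at each series mean. Series 42, in red, lies above all other arrays for every member except Cdk6, whose values lie near the dotted floor of 5.31.

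Gatad1 and Cav1 had more than 1 probe set, and the bright ones gave the same direction. The second Cav1 probe set averaged 12.30 ± 0.14 in series 42 and 8.28 ± 0.88 in the other lines, a difference of 4.02, and its correlation with the first was 0.94 over the 59 arrays without series 42. The second Gatad1 probe set averaged 11.59 ± 0.47 in series 42 and 7.78 ± 0.45 in the other lines, a difference of 3.81, with a correlation of 0.83 over the same 59 arrays. The third Gatad1 probe set was dim, at 6.16 ± 0.58 in series 42 and 5.92 ± 0.32 in the other lines. It correlated with the first at -0.42 over the 59 arrays, and its mean over the other 10 lines was below the brightness filter.

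The separation was already present in the primary tumor of series 42. Met stood at 11.60 in that tumor, against 7.17 ± 0.63 (SD, n = 10) in the other primary tumors, which ranged from 6.39 to 8.35. Capza2 stood at 11.69, against 9.13 ± 0.20, and Gatad1 at 10.79, against 8.09 ± 0.26. Cav1 stood at 12.23, against 9.02 ± 0.71. Over the 6 generations the difference between series 42 and the mean of the other lines lay between 4.43 and 5.31 for Met, between 2.70 and 3.63 for Gatad1, and between 2.03 and 3.06 for Ankib1. For Gatad1 and Ankib1 the largest of these differences was at transplant 5. For Capza2 the largest, 2.56, was in the primary tumor, and the 5 transplant differences lay between 1.51 and 2.0.

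Series 42 also differed from the other lines in its cells, and this was measured on the same arrays. Labelled as mammary tumors like the rest, its tumors had 7 tested epithelial markers at a mean of 5.39, where the other lines averaged 8.12 to 10.84. Krt18, Krt19, Cldn3 and Cldn7 were at the floor on all 6 arrays, and Epcam averaged 5.43 in series 42 and 10.86 in the other lines. The 10 tested endothelial markers averaged 7.55 in series 42, inside the range of 7.50 to 7.92 of the other lines. The part of endothelial cells in the caveolin levels was not tested. The 8 fibroblast markers averaged 8.74 in series 42, against 8.10 to 10.38 in the other lines, and the 7 macrophage markers 9.30, against 8.84 to 9.36. Of 8 adipocyte markers, 1 was bright enough to be tested. Of 9 skeletal muscle markers, 8 were measured and 4 tested, and these 4 averaged 8.04 in series 42, against 6.77 to 8.22 in the other lines. Within that list, Acta1, Tnnc2 and Tnni2 averaged 9.61, 9.25 and 9.46 in series 42, against 6.49, 5.80 and 5.66 in the other lines. Ckm and Casq1 differed by only 0.13 and 0.23, Myh1 was lower by 0.55, and Myh4 and Actn3 were at the floor on all 6 arrays. In whole tumor RNA, fewer cells of a type and less RNA per cell cannot be told apart.

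Epithelial markers were also low in the late tumors of series 32 and 34, where the members could be read beside them. In transplants 3 to 5 of these lines the mean of the 7 epithelial markers lay between 5.39 and 7.55, whereas in their primary tumors and transplants 1 and 2 it lay between 9.96 and 11.39. Met lay between 5.34 and 7.0 in those 6 late tumors and between 5.49 and 7.83 in the 6 earlier ones. Ankib1 lay between 7.62 and 7.92 in the late tumors and between 7.47 and 7.85 in the earlier ones, and Gatad1 between 7.28 and 9.11 in the late tumors and between 8.19 and 8.49 in the earlier ones. Capza2 lay between 9.50 and 9.76 in the late tumors and between 9.02 and 9.66 in the earlier ones. Krit1 lay between 6.69 and 7.40 in the late tumors and between 7.07 and 7.33 in the earlier ones. The highest late value of these 5 genes was below the lowest value of series 42 by more than 1. Cav1 came closer to series 42 in both lines, and Cav2 in series 34 only. Cav1 lay at 11.35 to 11.90 in the late tumors and 8.74 to 10.21 in the earlier ones. In series 34, Cav2 lay at 8.62 to 8.85 in the late tumors and 7.55 to 8.12 in the earlier ones. In series 32, Cav2 lay between 5.31, the floor, and 7.32 in the late tumors and between 7.09 and 7.67 in the earlier ones. The lowest value of Cav2 in series 42 was 8.90. Over 33 tested genes from Krit1 to Capza2, the median difference of late minus earlier tumors of these 2 lines was -0.05. The arrays of series 42 had median intensities of 143 to 147 before scaling, below every array of 8 of the other 10 lines (152 or higher), while series 34 began at 143 and series 32 at 96.1, and the part that array handling had in any difference between lines was not tested.

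The stretch of chromosome between the ends was then read gene by gene, in the order of the RefSeq annotation. From Krit1 to Capza2 the annotation holds 73 protein-coding genes, of which 43 were measured. Of these 43, 21 had every array of series 42 above the other 59 and none had every array below. Among the 35 that are not members the count was 14, where 2.59% of all measured genes showed the pattern, and their median difference was 0.72, against 0.05 over all measured genes. Among the 26 of these 35 that were bright enough to be tested, 13 lay above every other array, 23 had a positive difference and the median was 1.10. The 26 also passed the brightness filter on the mean of the other 10 lines, so they did not enter through their level in series 42. Of the 10 genes below the filter, 1 lay above every other array. The interval itself was marked out by the members, whose choice rested on series 42, so these counts too are a description without a test.

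The genes between Cdk6 and Cav2 that lay above every other array have varied known functions. Asns, asparagine synthetase, averaged 10.37 ± 0.66 in series 42 and 7.81 in the other lines, a difference of 2.56. Rpa3, the smallest subunit of replication protein A, differed by 2.43, C1galt1, a galactosyltransferase of mucin-type glycans, by 2.36, and Slc25a13, the mitochondrial aspartate and glutamate carrier, by 2.35. Glcci1 (1.84), Smim30l1 (1.75), Bet1, a SNARE of the early secretory pathway (1.6), Vps50, an endosomal trafficking protein (1.55), Sdhaf3, an assembly factor of succinate dehydrogenase (1.43), Mdfic (1.32), Sem1, a proteasome lid subunit (1.29), Bmt2 (1.15), Tmem168 (1.05) and Mios, which is part of an amino acid sensing complex (1.01), completed the 14. Of these, Mios was dim and not among the genes tested, at a mean of 5.39 in the other lines. Its lowest series 42 value, 5.893, barely exceeded the highest elsewhere, 5.885. The 14 genes are spread over the stretch, with gaps. On this map Cdk6 has Vps50 as the next measured gene on one side and the dim 1700109H08Rikl (0.14) and then Gatad1 on the other.

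Other genes inside the stretch did not follow. Dlx5, a homeobox factor, averaged 5.98 ± 0.14 in series 42 and 7.19 in the other lines, a difference of -1.21, the only one under -1 there. Sgce was lower by 0.41 and Peg10 by 0.51 in series 42, with overlapping ranges. Peg10 was dim, at 5.48 in series 42 and 5.99 in the other lines, and was not among the genes tested. Pon2 (0.37), Pdk4 (0.37) and Calcr, the calcitonin receptor (0.36), differed little, with overlapping ranges. Col1a2 (1.15), Tes (1.01), the measured gene before Cav2, and Ndufa4 (1.03) were higher on average in series 42 with overlapping ranges. Col1a2 is also a fibroblast marker. Col1a1 and Col3a1, from the same marker list, differed by -0.25 and -0.06, and the part of fibroblasts in these values was not tested.

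The raised genes did not stop exactly at the members. Among the 20 measured genes before Krit1, 3 lay above every other array: Cacna2d1, a calcium channel subunit, at 10.21 ± 0.34 in series 42 and 6.56 in the other lines (3.65), Cyp51, a sterol synthesis enzyme (1.63), and Mterf1, the direct neighbor of Krit1 (1.11). Against the remaining lines without series 42, Cacna2d1 also stood at 1.07 in series 32 and 0.73 in series 34. Cyp51 stood at 0.06 and 0.22 there, and Mterf1 at -0.26 and -0.12. Cldn12 (2.24), Sema3c (2.05) and Sri (1.87), named after their values were seen, were higher on average with overlapping ranges, and the median of these 20 was 0.64. Among the 20 measured genes after Capza2, 3 lay above every other array, namely Lsm8 (1.62), Ndufa5 (1.2) and Ing3 (0.91), and the median was 0.07. Asz1, the measured gene next to Capza2, read 5.85 in series 42 and 5.74 in the other lines, near the floor. The lowest differences of the whole window lay there, at -2.16 for Ptprz1, a receptor tyrosine phosphatase, -1.78 for Tspan12, -1.77 for Cadps2 and -1.32 for Gpr37. Ptprz1 and Gpr37 were within 0.1 of the floor in series 42. Against the remaining lines without series 42, Ptprz1 stood at -1.07 in series 32 and -0.74 in series 34. Tspan12 stood at -0.42 and -1.59 there, Cadps2 at -0.59 and -0.97, and Gpr37 at -0.71 and 0.07. Whether these flank values go with the low epithelial markers of these lines was not tested. Over the rest of chromosome 4, 15 of 559 measured genes lay above every other array and the median difference was 0.05.

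**Figure D2:**
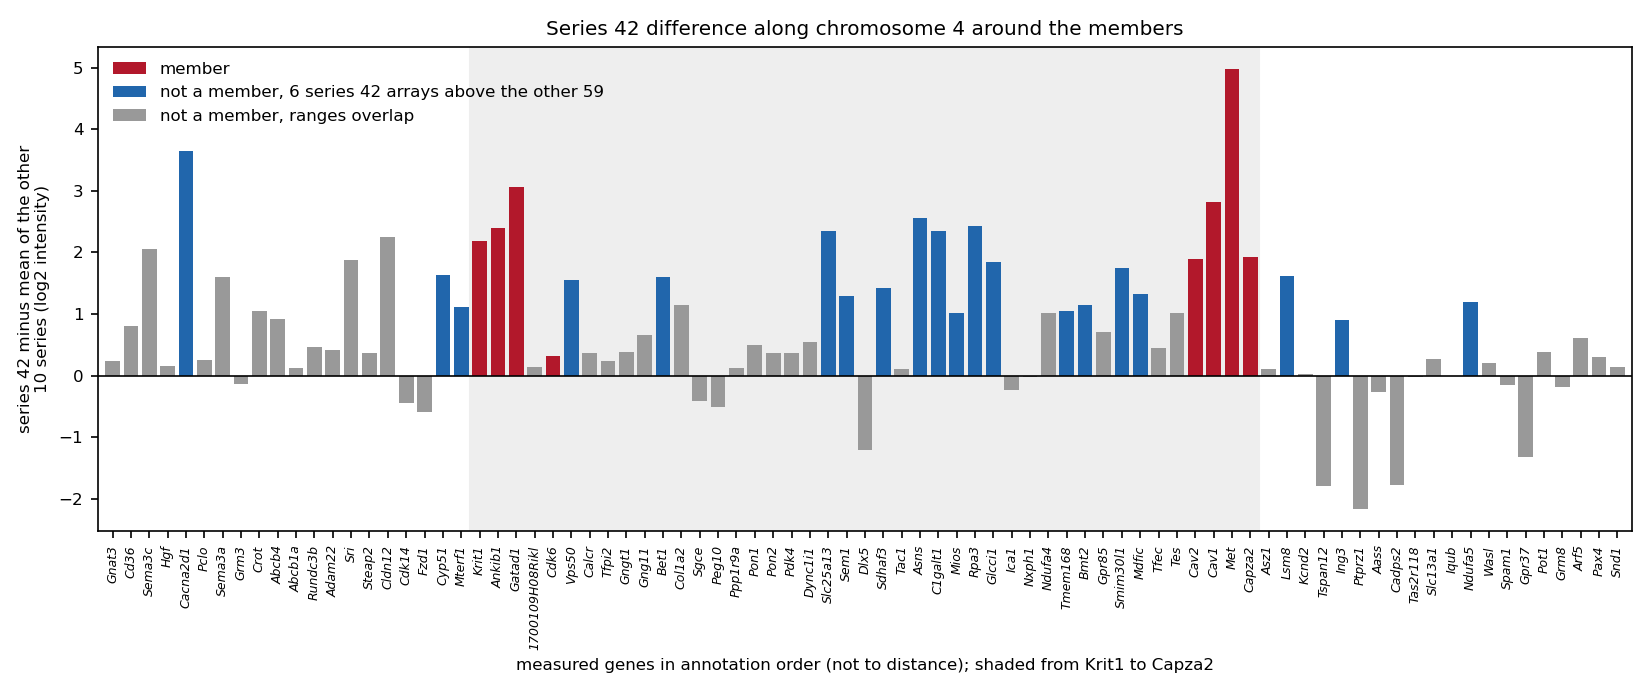
Difference in log2 intensity between series 42 and the mean of the other 10 series (y axis) for measured chromosome 4 genes in annotation order (x axis, not to distance), with members in red and the interval from Krit1 to Capza2 shaded. Met has the tallest bar at 4.98, and 14 of 35 other genes in the interval, in blue, have all 6 series 42 arrays above the other 59.

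No other line showed a comparable shift of the stretch. The median difference of its 33 tested genes in each of the other 10 lines, against the mean of the remaining 9, lay between -0.15 in series 19 and 0.11 in series 34. Series 42 against those 10 lines stood at 1.32. In the other 10 lines, differences of at least 1 were few: Col1a2, Tes, Cav2 and Cav1 in series 34, Cav1 in series 32, and Col1a2 in series 17 and in series 36. In series 34, where Cav1 stood 1.28 above the remaining 9 lines and Cav2 1.06, Met stood 0.42 above them and Capza2 0.12.

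**Figure D3:**
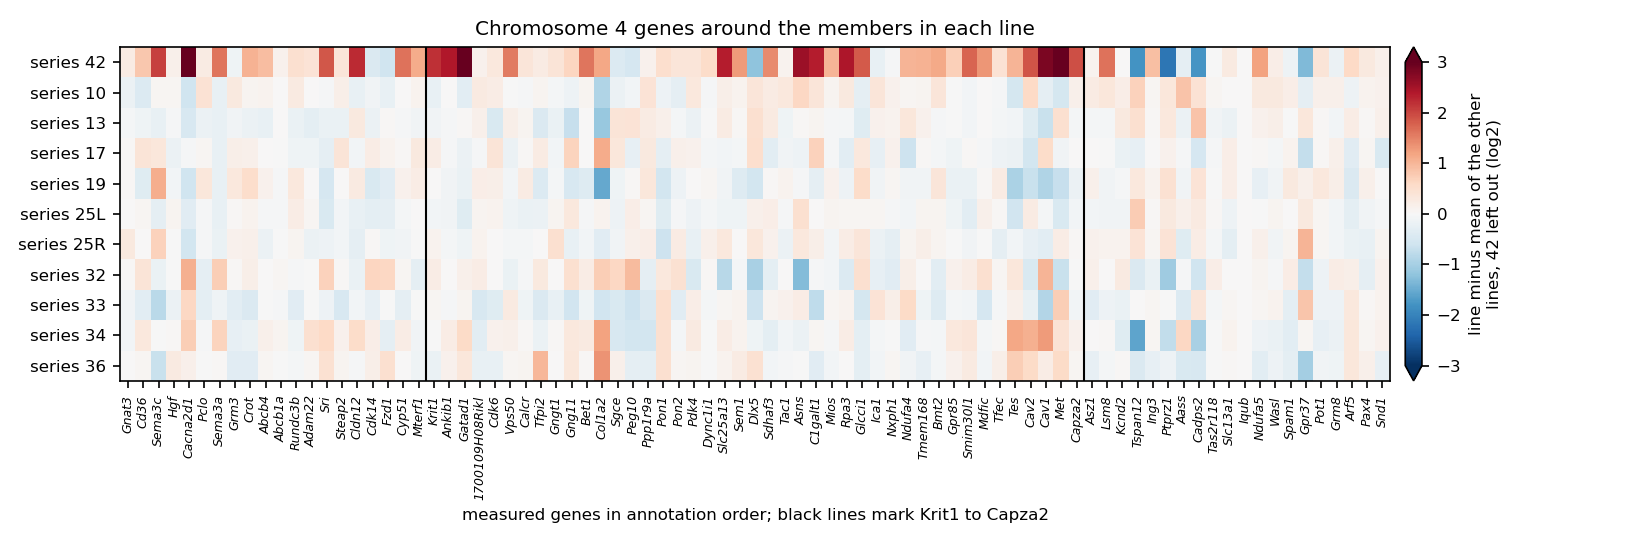
Heat map of measured chromosome 4 genes (x axis, annotation order) in the 11 lines (rows, series 42 on top), colored by each line's mean minus the mean of the other lines with series 42 left out (log2 intensity, scale limited to 3 in each direction). The red run between the black lines, which mark Krit1 to Capza2, appears in series 42 and in no other row, where the medians over the stretch lie between -0.15 and 0.11.

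Levels among the other 10 lines do not use the contrast of series 42, although the members were chosen with other results of these arrays known, and they were tested. Met, Cav1, Cav2 and Gatad1 differed among these lines (limma adjusted p = 0.000153, 3.13e-05, 4.13e-05 and 0.0011), while Ankib1, Krit1 and Capza2 did not pass the threshold (0.0716, 0.282 and 0.276). So 4 of 7 members were called, where 66.9% of all 8499 tested genes were, and the members did not stand out. In order, the line means of Met were 7.37 in series 33, 7.22 in series 36, 7.13 in series 13, 7.08 in series 34, 6.89 in series 25R, 6.61 in series 17, 6.28 in series 25L, 6.22 in series 10, 6.09 in series 32 and 6.06 in series 19. No neighbors in this order differed by more than the larger SD of the pair. Cav1 and Cav2 were both highest in series 34, at 10.68 and 8.28, and lowest in series 19, at 8.72 and 6.72. Gatad1 was highest in series 34 at 8.56 and lowest in series 25L at 7.72. The line means of Capza2 ran from 9.28 to 9.57 and those of Ankib1 from 7.56 to 7.85. The calls for Met, Cav1, Cav2 and Gatad1 held in all alternatives in which the gene was tested.

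Within lines, the members moved in different directions with transplantation, and by unequal amounts. Averaged over its transplants, the difference from the primary tumor of the line was 2.06 for Cav1 in series 32 and 1.65 in series 13, 1.43 for Cav2 in series 10 and -1.47 for Met in series 13. Of the 7 tested members, limma called 2 in the comparison of transplants with primary tumors, where 9.5% of all genes were called, 377 up and 430 down. Capza2 rose. It averaged 9.66 ± 0.55 in the transplants and 9.36 ± 0.80 in the primary tumors (SD, n = 11 lines), and it was higher in 10 of 11 lines, with series 42 the exception at -0.41. The fitted difference was 0.30 ± 0.07 (SE; limma adjusted p = 0.00456), and the call held without any 1 line but not with 1 value per series (0.104) or without the series as a block (0.529). Capza1 and Capzb, other subunits of capping protein, differed by 0.05 ± 0.07 and 0.05 ± 0.06. Neither passed the threshold (limma adjusted p = 0.72 and 0.642), and the difference between these genes and Capza2 was not tested.

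Met fell with transplantation. Its mean over lines was 7.06 ± 1.61 in the transplants and 7.58 ± 1.46 in the primary tumors (SD, n = 11 lines), and it was lower in 9 of 11 lines. The exceptions were series 36 at 0.12 and series 42 at 0.08. The largest falls were in series 13 at -1.47, series 25L at -1.35 and series 25R at -1.05. In series 13 the primary tumor stood at 8.35, transplant 1 at 8.11 and transplants 2 to 5 between 6.20 and 6.94, while in series 25R the primary tumor stood at 7.76, transplant 1 at 5.53 and transplant 5 at 7.55, so the course differed between lines. The fitted difference was -0.52 ± 0.16 (SE; limma adjusted p = 0.0366). Without 1 line the adjusted p ranged from 0.0256 to 0.106, and the call was lost without series 13, 17, 19, 25L or 25R. It was also lost with array weights, where the difference was -0.29 (limma adjusted p = 0.425), with the Gapdh ratio as covariate (0.087), with 1 value per series (0.086), without the block (0.719) and without the late tumors of series 32 and 34 (0.0708). The slope of Met over transplants 1 to 5 was 0.01 ± 0.05 per transplant (limma adjusted p = 0.899).

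Cav1 and Capza2 were the 2 of 7 members called for a slope over transplants 1 to 5, where 4.82% of all genes were called. Capza2 rose by 0.08 ± 0.02 per transplant (SE; limma adjusted p = 0.0272), and the call was lost without series 32, 34 or 36, without the late tumors of series 32 and 34 (0.424), without rescaling (0.104), with array weights (0.0819), with 1 value per series (0.447) and without the block (0.6). Cav1 rose by 0.19 ± 0.06 per transplant (limma adjusted p = 0.0466), but this call was close to the threshold and was lost without series 13, 17, 25L, 25R, 32, 34 or 36. In series 34, Cav1 stood at 9.81, 9.70, 9.32, 11.65, 11.90 and 11.70 for the primary tumor and transplants 1 to 5, and in series 32 at 8.74, 10.21, 9.62, 11.43, 11.39 and 11.35. Epcam, the epithelial adhesion molecule, stood at 12.01, 11.74, 11.62, 6.52, 5.83 and 5.31 in series 34 and at 11.91, 11.62, 11.56, 9.17, 7.70 and 5.58 in series 32. The fibroblast markers, as a mean of 8, stood at 8.78 in the primary tumor of series 34 and between 9.52 and 10.92 in its transplants 3 to 5, and at 6.75 in the primary tumor of series 32 and between 11.58 and 11.76 in its transplants 3 to 5. Without the 6 late tumors of these lines the Cav1 slope was 0.11 (limma adjusted p = 0.676). With the mean of each series removed, Cav1 correlated with the epithelial markers at -0.70 and with the endothelial and fibroblast markers at 0.50 and 0.48 over 65 arrays, which share their RNA and their scaling, whereas Met correlated with the epithelial markers at 0.19. The part these cells had in the Cav1 slope was not tested.

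**Figure D4:**
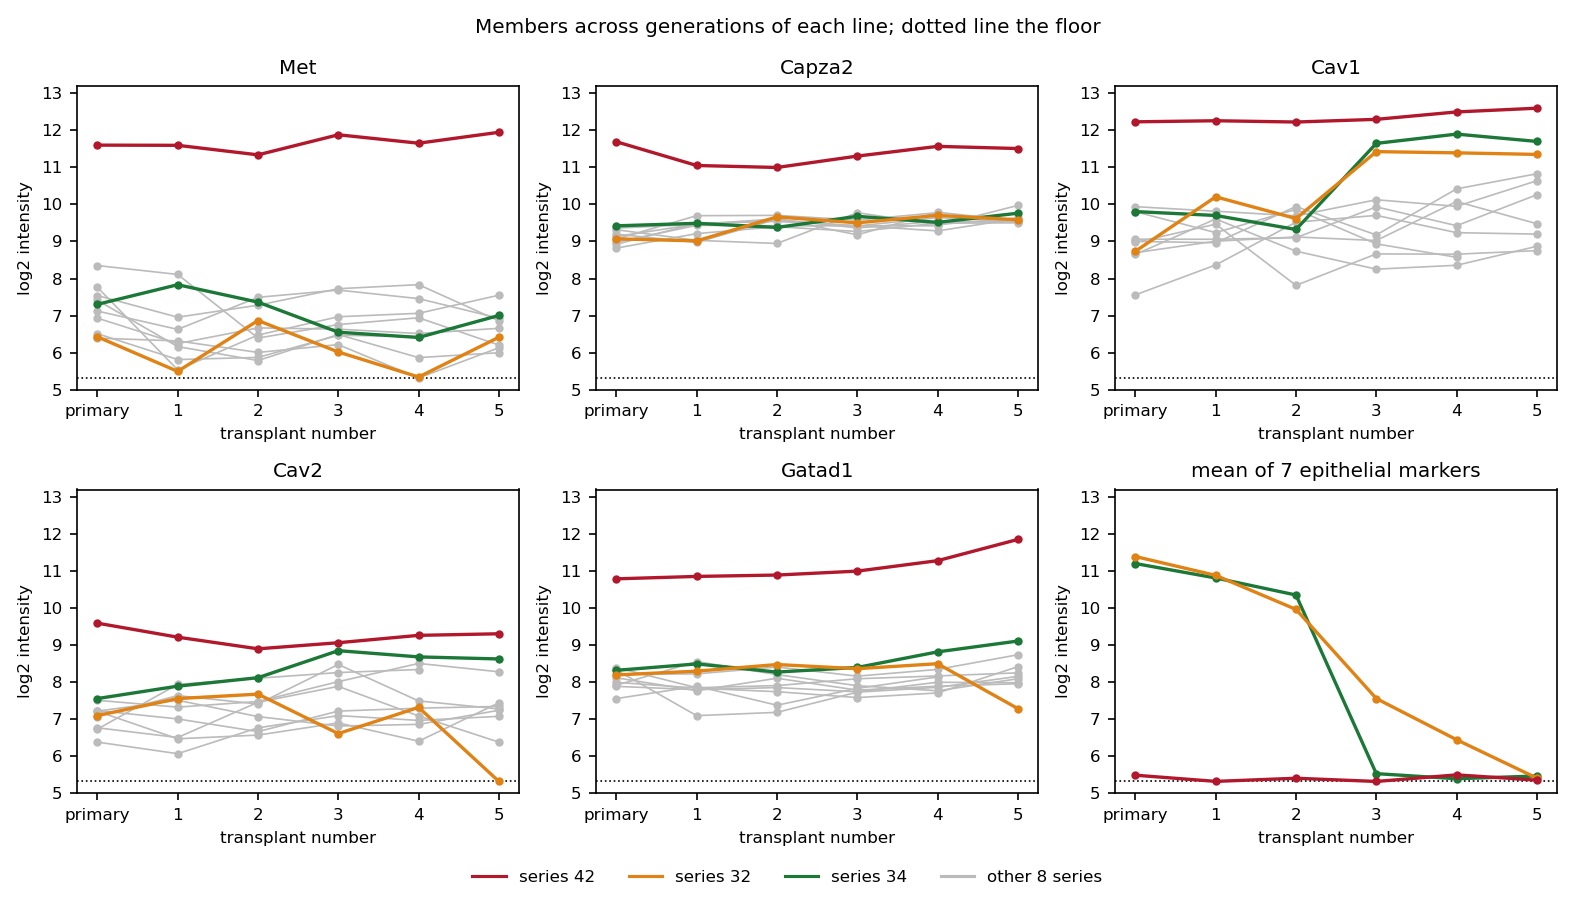
Log2 intensity (y axis) of 5 members and of the mean of 7 epithelial markers against generation (x axis, primary tumor then transplants 1 to 5), with 1 line per series and the floor dotted (the marker panel shows only series 42, 32 and 34). Met in series 42 stays between 11.34 and 11.95, and Cav1 in series 32 and 34 is at 11.35 or above from transplant 3 on, where the epithelial markers are low.

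Whether a member moved in single lines was tested by comparing slopes among the 11 lines over the 54 transplant arrays. Gatad1, Cav2 and Cav1 were called (limma adjusted p = 0.0174, 0.0397 and 0.0468), 3 of 7 members, where 24.3% of all genes were. Gatad1 had slopes of 0.28 ± 0.08 (SE) per transplant in series 25L, 0.24 ± 0.08 in series 42 and 0.18 ± 0.08 in series 34, against -0.20 ± 0.08 in series 32 and -0.14 ± 0.08 in series 13. The low slope of series 32 came with its transplant 5 value of 7.28, where the other 5 tumors of the line lay between 8.19 and 8.49. Cav2 had its lowest slope in series 32, at -0.48 ± 0.13, and its highest in series 36, at 0.29 ± 0.13. Cav1 had its highest in series 34, at 0.66 ± 0.15, and its lowest in series 10, at -0.29 ± 0.22, so the slopes of the 2 caveolins ran opposite ways in series 32, where Cav1 stood at 0.41 ± 0.15. The Gatad1 call was lost without series 25L, the Cav2 call without series 19, 32, 34 or 36, and the Cav1 call without series 10, 25L, 32, 33, 34, 36 or 42, and none of the 3 held without the 6 late tumors of series 32 and 34. The Gatad1 call was also lost with the mean over its probe sets (0.0754), the Cav2 call with array weights or no filter (0.0759 and 0.0508), and the Cav1 call without rescaling, after quantile normalization, with no filter or with the Gapdh ratio (0.061 to 0.101). Met did not pass the threshold (limma adjusted p = 0.0716), although its slopes ran from -0.33 ± 0.13 in series 13 to 0.46 ± 0.13 in series 25R.

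Inside series 42 the slopes of the members were all above 0. Slopes were 0.24 ± 0.08 for Gatad1, 0.22 ± 0.05 for Ankib1 and 0.20 ± 0.08 for Krit1 (SE, 5 transplant arrays, spread pooled over lines). At the Met end they were 0.15 ± 0.06 for Capza2, 0.10 ± 0.13 for Met, 0.10 ± 0.15 for Cav1 and 0.05 ± 0.13 for Cav2. Slopes of single lines carry no adjusted p, and whether the 2 ends differ was not tested. Over the 6 arrays of series 42, Gatad1 and Ankib1 correlated at 0.98, Gatad1 and Cav1 at 0.96, and Met and Krit1 at 0.88, whereas Ankib1 and Capza2 correlated at 0.24, Met and Cav2 at 0.28, Gatad1 and Cav2 at 0.09, Ankib1 and Cav2 at 0.02, and Met and Cdk6 at -0.31. Over all 65 arrays with series means removed, the closest pairs were Ankib1 with Gatad1 at 0.64 and Krit1 with Ankib1 at 0.61, while Met ran from 0.13 with Krit1 to -0.18 with Capza2, -0.20 with Cav2 and -0.39 with Cav1. The arrays of a pair share their scaling, so these are descriptions.

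The genes most like Met were named by correlation. Over all 65 arrays they were Gatad1 (0.89), Ankib1 (0.88), Cnot10 (0.88), Nme6 (0.87) and Ubp1 (0.86), of which the first pair lies on chromosome 4 and the last 3 on chromosome 8, and all 5 were higher in series 42. Cnot10 averaged 9.47 in series 42 and 8.08 in the other lines, Nme6 7.72 and 6.23, and Ubp1 9.04 and 7.62. Without series 42, over 59 arrays, the 5 were Ung (0.60), Pafah1b3 (0.60), Rdh10 (0.59), Zfp574 (0.58) and Cish (0.58), and the correlation of Met with Gatad1 was 0.32, with Ankib1 0.08, with Krit1 0.00 and with Cav1 -0.25. With series means removed they were Slc4a4 (0.63), Casp12 (0.58), Vtcn1 (0.58), Chn2 (0.57) and Kit (0.56). The genes most like Cdk6 over 65 arrays were Myom1 (0.70), Or10g1b, Npr1 and Kcnq3 (0.67 each) and Nppb (0.66), and Cdk6 correlated with Met at 0.12. Without series 42 they were Mypop (0.76), Kcnq3 (0.74), Tlcd3b (0.73), Myom1 (0.73) and Nppb (0.70), and with series means removed Mypop (0.72), Myom1 (0.67), Tlcd3b (0.67), Kcnq3 (0.66) and Tmem178a (0.66). The Cdk6 probe set averaged 6.08, near the floor and below the brightness filter. Its correlations therefore rest on little signal, and no likeness to Cdk6 is read from them.

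The other genes of the pathways were read from lists. For the ligand side of Met, Hgf itself was near the floor, at 5.67 ± 0.27 in series 42 and 5.52 in the other lines. Hgf also lies on chromosome 4, among the 20 measured genes before Krit1. St14 and Hpn, proteases that activate hepatocyte growth factor, averaged 6.64 and 5.98 in series 42, against 8.96 and 6.81 in the other lines, and Spint2, an inhibitor of such proteases, 6.50 against 11.19. Among partners and transducers, Cd44, which can present growth factors to Met, averaged 10.91 in series 42 and 8.39 in the other lines. Src, the only 1 of the 16 tested genes of the list below every other array, averaged 6.10 ± 0.49 in series 42 and 9.14 in the other lines, and Gab1, the docking protein of Met, 7.30 and 8.16. The median difference of the list was -0.65, against 0.06 over all tested genes. With transplantation, where 9.5% of all genes were called, 1 of 16 rose (Cd44, 0.75 ± 0.17, limma adjusted p = 0.00399) and 5 fell (Src, Hpn, Plxnb1, Pik3ca and Cbl, with differences from -0.56 to -0.22), and by slope, where 4.82% of all genes were called, 1 rose (Cd44) and 5 fell (St14, Spint2, Gab1, Src and Plxnb1). By slope 6 of 7 epithelial markers fell too, with a list median of -0.40, their part in the change of this list was not tested, and without the late tumors of series 32 and 34 limma called 0 of all genes for slope.

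Downstream genes were mixed in series 42. Of 12 tested genes commonly raised by ERK signalling, Plau, the urokinase gene, lay above every other array, at 10.56 in series 42 and 8.71 in the other lines, and Ier3 lay below, at 7.52 and 9.47. Fosl1, an AP-1 subunit, averaged 9.77 in series 42 and 6.16 in the other lines, with overlapping ranges, while the feedback inhibitors Spry1 and Spry2 averaged 5.76 and 5.71 in series 42, against 7.94 and 7.79 in the other lines. Dusp6 was at 10.33 and 10.99. The median difference of these 12 was -0.38. Plaur, the 1 gene of the 13 measured that was too dim to be tested, averaged 8.435 in series 42 and 6.00 in the other lines. Its ranges overlapped. With transplantation, where 9.5% of all genes were called, none of the 12 rose and 1 fell, Ereg (-0.21 ± 0.07, limma adjusted p = 0.0445). By slope, where 4.82% of all genes were called, 1 fell, Spry1 (-0.19 per transplant, limma adjusted p = 0.0485).

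For the 12 tested genes of the cyclin D and retinoblastoma pathway, the median difference of series 42 was 0.70. This list holds inhibitors of Cdk6 as well as partners and substrates. Cdkn2b, an inhibitor of Cdk4 and Cdk6, lay above every other array at 8.14 in series 42 and 6.61 in the other lines. Cdkn2a, which encodes another such inhibitor and Arf, averaged 10.73 in series 42 and 6.91 in the other lines, with line means of the other lines from 5.31 to 9.78. Ccnd1 and Ccnd3 averaged 11.95 and 9.78 in series 42, against 10.87 and 8.71 in the other lines, and Cdk4 10.03 and 9.94. With transplantation, where 9.5% of all genes were called, none rose and 1 of 12 fell, Rbl2 (-0.40 ± 0.14, limma adjusted p = 0.0498). By slope, where 4.82% of all genes were called, 1 rose, Ccnd3 (0.09 per transplant, limma adjusted p = 0.0489).

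The lists for the remaining members were short. Of 3 tested genes of caveolae, Cavin3 averaged 11.12 in series 42 and 9.98 in the other lines, and none was called with transplantation or by slope. Of 6 genes of the Krit1 complex, Itgb1bp1, a binding partner of Krit1, averaged 8.90 in series 42 and 7.49 in the other lines, Heg1, the receptor that anchors Krit1, 5.50 and 6.91, and Ccm2 8.94 and 8.46. Rap1a, the small GTPase that binds Krit1, was the 1 of these 6 called with transplantation, at 0.28 ± 0.07 (limma adjusted p = 0.0117). None of the 6 was called by slope. Of all genes, 9.5% were called with transplantation and 4.82% by slope. Of 5 tested genes of actin capping, none was called in either comparison, and the median difference of series 42 was -0.03. None of the genes of these 3 lists lay above or below every other array.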

How the data were processed

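Per the labels, total RNA from frozen tissue was turned into biotin-labelled cRNA for 65 Affymetrix arrays. The deposited values are linear probe set intensities, from 1 to 12011, and summarisation and normalization by the authors are not given in the sources used here. Before log2, all arrays were brought to 1 median (162, taken across 15866 probe sets without controls) and values below 39.8, the 10th percentile of all arrays together, were raised to that floor. Probe sets were named by the platform annotation, updated through RefSeq. A gene with several probe sets was represented by the brightest, and testing required a mean log2 of at least 6.35.

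Tests used limma 3.58.1 (lmFit, eBayes, moderated F) in R 4.3.3, tables Python 3.11.15 with pandas 2.3.3 and numpy 2.4.6, and plots matplotlib 3.10.9. Generation and series were factors, except in the test of slopes among lines. That test used series, transplant number and their interaction over the 54 transplant arrays. Benjamini-Hochberg adjustment was over 8499 genes, with a threshold of 0.05. The pairing is the line of descent given in the sample titles, and arrays of 1 series deviated together (mean correlation 0.38 within and -0.04 between series; 50 of 65 arrays were closest to one of their own series). The fit treats tumors of a line as independent although each descends from the one before, so p-values measure the spread between these tumors. The number of arrays limits precision.

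No probe set was matched to St7. Described by name were all members, measured chromosome 4 genes next to a member, the 5 largest and 5 lowest series 42 differences within 20 genes of the members, the 5 genes most like Met and most like Cdk6, and genes of the fixed pathway and marker lists; other genes of the stretch were named after their values were seen. The members and lists were chosen with earlier results of these data known. Correlations are Pearson's. Alternatives changed scaling, normalization, floor, filter, probe set choice, array weights, an RNA quality covariate, the lines included and the series block. The model fit was tested on simulated data.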

Additional observations from a re-analysis of the deposited data

Results flagged for a closer look

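Of 96 groups examined, each the 5 or 6 tumors of a line or the 10 tumors of transplant 5, 11 held a tumor far from the rest. Of these, 5 are series 42 at transplant 5, fixed by the choice of the genes. The other 6, all within single lines, are close to the 1 in 20 groups that chance gives. At transplant 5, where 10 tumors were compared, series 42 stood apart for Met at 11.95 (others 6.00 to 7.55), Gatad1 at 11.85 (7.28 to 9.11), Capza2 at 11.51 (9.50 to 9.97), Ankib1 at 10.82 (7.62 to 7.92) and Krit1 at 9.70 (6.77 to 7.42), the contrast the genes were chosen on. Within lines, Gatad1 was low at 7.28 in transplant 5 of series 32 (others 8.19 to 8.49), Cav2 at 6.73 and Capza2 at 9.07 in the primary tumor of series 10 (others 7.94 to 8.34 and 9.58 to 9.78), and Met at 5.31, the floor, in transplant 4 of series 19 (others 6.00 to 6.39). Cdk6 was high at 6.34 in the primary tumor of series 13 (others 5.31 to 5.63) and low at 5.74 in transplant 2 of series 19 (others 6.19 to 6.45), all near the floor.

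The slopes of 3 members over transplants differed among lines, by limma's moderated F with adjusted p = 0.0174 for Gatad1, 0.0397 for Cav2 and 0.0468 for Cav1. None of the 3 passed without transplants 3 to 5 of series 32 and 34.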

How the results depend on the processing

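The higher level of series 42 kept its sign for all 8 measured members without rescaling, after quantile normalization and without the floor. Differences moved by more than the replicate SD for Met (4.67) and Cav1 (2.61) after quantile normalization and for Cdk6 (0.17) without rescaling. The count of genes from Krit1 to Capza2 above every other array was 21, and 18 to 21 in the alternatives. The 4 members called among the 10 other lines were 3 to 5 in the alternatives. Passage results were less stable, and the cause was not tested. For transplants minus primary tumors, the 2 members called (807 of all genes) became 1 with the filter at the median, which leaves Met untested, 1 with array weights (331 genes), 1 with the Gapdh ratio as covariate (407 genes), 0 with 1 value per series (135 genes), 1 without transplants 3 to 5 of series 32 and 34 (chosen after seeing the data), and 1 to 3 without 1 line. For the slope, 2 called (410 genes) became 0 without rescaling, 1 after quantile normalization, 1 without a filter (265 genes), 0 with array weights (4 genes), 0 with 1 value per series (0 genes by limma), 0 without those late tumors (0 genes by limma), and 0 to 2 without 1 line, with 7, 4 and 3 genes in all without series 32, 34 and 36. For slopes that differ among lines, 3 called (2067 genes) became 1 without a filter, 5 with array weights (5596 genes), 0 without the late tumors (417 genes), and 1 to 3 without 1 line, with 845 genes without series 25L. Pairing by line mattered: without the series as a block, 0 members were called for transplants minus primary tumors (85 genes) and 0 for the slope (0 genes).

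Signs turned only for values near 0. The Gatad1 difference of transplants minus primary tumors was 0.0446 with array weights, 0.0477 with the Gapdh ratio, 0.000936 without the block, 0.000159 without the late tumors, and from -0.0507 to 0.0610 without 1 line. Krit1 stood at -0.00440 without series 13 and, over all lines left out in turn, from -0.00916 (series 19) to 0.109. The Met slope was -0.00829 without rescaling and, without 1 line, from -0.0324 (series 25R) to 0.0507 (series 13). Cdk6 read near the floor, which limits what its values show.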

Other observations

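Series 42 was set apart on another chromosome too. On chromosome 8, 49 of 600 measured genes had all 6 arrays of series 42 above the other 59, or 8.17%, against 6.54% on chromosome 4 (42 of 642), 3.84% on chromosome 1 (51 of 1328) and 0.289% on chromosome 12, the lowest. Of the 42 on chromosome 4, 21 lie from Krit1 to Capza2. The chromosomes were compared after series 42 had been picked, and no test was made.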
